A study of Mus musculus with 4 samples.

Results

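The genes described here are those named for potassium channels, whose symbols begin with Kcn in the mouse nomenclature. They were taken by name from the gene column of the deposited tables. The naming rule uses no measured value, though the members were chosen with earlier results of these data known. The rule found 123 of 35411 array rows, which name 72 of 20735 genes. Each gene was represented by its row with the highest mean log2 intensity over the 4 arrays. Of the 72 genes, 43 had 1 row and 29 had several, up to 6. One of the 72, Kcnq1ot1, is a non-coding RNA transcribed within the channel gene Kcnq1 and encodes no channel subunit.

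The samples are labelled as CD4+ T cells with high CD62L from the spleens of FVB/N mice, on 1 single-colour array each. The 4 groups were miR-7 deficient cells activated for 48 hours with antibodies to CD3 and CD28 plus IL-2, wild type cells activated in that way, naive miR-7 deficient cells and naive wild type cells. In the labels each sample stands for 3 biological replicates, but 1 array per group was given. All differences are therefore between 2 arrays, without a measure of replicate error and without a test. How miR-7 was made deficient, and how fully, is not given in the labels. The deposited column headers abbreviate this genotype as KD. The growth and treatment protocols in the labels describe a bacterial culture, so the magnetic bead isolation and the stimulation rest on the sample descriptions alone.

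Potassium channels let potassium leave or enter a cell and so set its membrane potential. In T cells the voltage-gated channel Kv1.3, encoded by Kcna3, and the calcium-activated channel KCa3.1, encoded by Kcnn4, keep the membrane negative and thereby sustain calcium entry through Orai channels after the antigen receptor is engaged. In neurons the family is far more varied: Kv channels shape the action potential, BK channels end calcium-dependent firing, and inward rectifiers and 2-pore channels hold the resting potential.

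A gene was counted as above background when its intensity exceeded a floor, the 95th percentile, on the same array, of 664 rows for taste, trace amine, vomeronasal and olfactory receptors. The floor was 610.5 on the miR-7 deficient array labelled activated, 723.1 on the wild type array labelled activated, 991.2 on the miR-7 deficient naive array and 985.9 on the wild type naive array. Before differences were taken, values below a floor were set to it, so differences in which 1 array lay below it are bounds ("at least"), and genes were called apart from 2-fold. The labels were then set against marker lists. Of 12 T cell markers, including Cd3e and Cd4, 2 and 3 exceeded their floor on the miR-7 deficient and wild type arrays labelled activated, against 11 and 9 on the miR-7 deficient and wild type naive arrays. Of 12 neuron markers, such as Snap25, 11 and 10 exceeded theirs on the miR-7 deficient and wild type arrays labelled activated, against 0 on either naive array. Their summed intensity was 75130 and 49508 on the miR-7 deficient and wild type arrays labelled activated, against 2610 and 2585 on the miR-7 deficient and wild type naive arrays. The 7 oligodendrocyte markers summed to 49106 and 60621 on the miR-7 deficient and wild type arrays labelled activated, against 2125 and 2531 on the naive ones. Of 8 markers of activated T cells, 1 exceeded its floor on each array labelled activated and 2 on each naive array. Among them Pcna was above the floor on all 4 arrays and Il2ra on none. The T cell, neuron and oligodendrocyte markers on the 2 arrays labelled activated thus go against the label. These 2 arrays are called arrays labelled activated throughout. In bulk RNA, fewer cells of a type and less RNA per cell cannot be told apart.

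The promoters of 3 genes are shown because these genes differed most with a floor applied: Kcnn4 stood above the floor on both naive arrays only, and Kcnma1 and Kcnmb4, which encode the pore and an accessory subunit of one channel type, on both arrays labelled activated only. Each window runs from 250 bases before to 50 bases after the gene's start, 5′ to 3′ on the gene's strand, from RefSeq on GRCm38.p6. Capitals mark GC boxes (GGGCGG) and E boxes (CACGTG) on either strand. The first lies at chr7:24370013-24370312 on the plus strand, the second at chr14:24004156-24004455 and the third at chr10:116473474-116473773, both on the minus strand.
Kcnn4: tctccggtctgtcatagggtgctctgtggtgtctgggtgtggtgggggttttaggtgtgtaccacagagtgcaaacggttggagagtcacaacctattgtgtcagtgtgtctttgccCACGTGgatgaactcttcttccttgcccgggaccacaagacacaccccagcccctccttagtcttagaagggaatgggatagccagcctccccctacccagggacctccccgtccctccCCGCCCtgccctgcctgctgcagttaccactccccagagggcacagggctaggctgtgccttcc
Kcnma1: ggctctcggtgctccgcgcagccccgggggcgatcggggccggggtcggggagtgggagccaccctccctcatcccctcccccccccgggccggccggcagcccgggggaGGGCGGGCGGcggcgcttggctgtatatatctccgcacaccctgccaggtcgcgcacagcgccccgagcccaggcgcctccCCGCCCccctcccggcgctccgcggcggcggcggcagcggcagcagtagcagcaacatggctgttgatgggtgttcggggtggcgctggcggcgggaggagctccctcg
Kcnmb4: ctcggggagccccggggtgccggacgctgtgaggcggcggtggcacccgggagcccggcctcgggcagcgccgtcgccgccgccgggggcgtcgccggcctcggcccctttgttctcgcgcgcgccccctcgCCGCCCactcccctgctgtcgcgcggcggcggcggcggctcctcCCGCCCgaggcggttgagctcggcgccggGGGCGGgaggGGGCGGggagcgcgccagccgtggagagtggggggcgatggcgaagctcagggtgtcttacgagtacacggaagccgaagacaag
The Kcnn4 window held 6 CpG, 1 GC box and 1 E box. The Kcnma1 window held 36 CpG and 3 GC boxes, of which 2 overlap into one run of capitals. The Kcnmb4 window held 48 CpG and 4 GC boxes. The median over 32851 RefSeq windows of 300 bases was 7 CpG, so the windows of both BK channel genes lay far above it and that of Kcnn4 just below. A GC box was present in 35.7% of all windows and an E box in 7.15%. None of these 3 windows held the letters TATAAA (13.6% of windows), TGANTCA (7.81%) or TGACGTCA (1.79%), which says only that the letters are not in these 300 bases. A window was found for 52 of the 72 genes.

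Few potassium channel genes were above background, and fewer on the naive arrays. On the miR-7 deficient array labelled activated 18 of 72 (25.0%) exceeded the floor, beside 25.6% of all genes. On the wild type array labelled activated it was 12 (16.7%), beside 22.2%. The miR-7 deficient naive array had 3 (4.17%), beside 14.7%, and the wild type naive array 5 (6.94%), beside 13.7%. On both naive arrays the share was thus below that of all genes, and on the miR-7 deficient array labelled activated it was close to it. Over the whole series 51 genes were above no floor (70.8%, beside 70.1% of all genes), 10 on 1 array, 7 on 2, 2 on 3 and 2 on all 4. Above the floor on an array labelled activated and on neither naive array were 16 (22.2%), beside 13.3% of all genes. Kcnn4 was the 1 gene above the floor on naive arrays alone (1.39%, beside 2.53% of all genes). The floors were higher on the naive arrays, which lowers the naive counts. Of the 2 arrays labelled activated, the miR-7 deficient one had the lower floor (610.5 against 723.1), which raises its count beside that of wild type. The median intensity of the 72 genes, which uses no floor, was 234.7 and 182.0 on the miR-7 deficient and wild type arrays labelled activated, against 145.9 and 148.0 on the miR-7 deficient and wild type naive arrays, while that of all genes lay between 245.7 and 247.6.

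**Figure D1:**
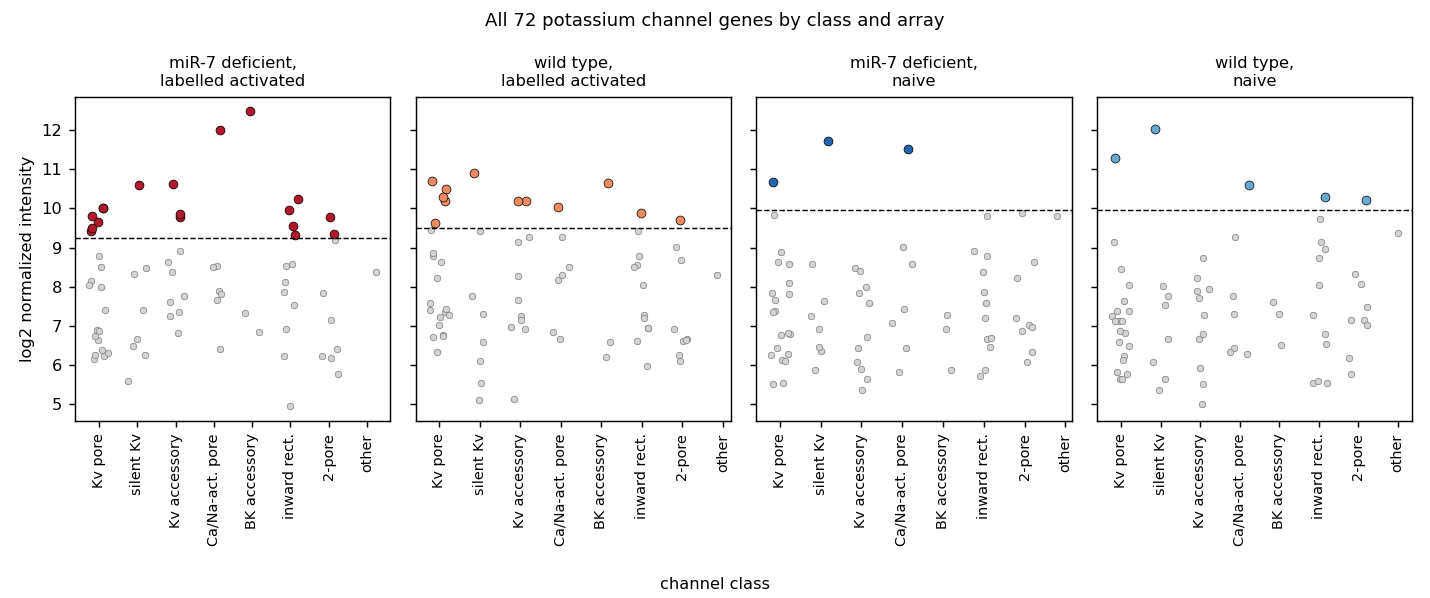
Log2 normalized intensity of all 72 potassium channel genes (points) by channel class on the x axis, 1 panel for each array, with the floor as a dashed line and genes above it in colour. Kv is voltage-gated, BK the large calcium-activated channel and rect. rectifier; 18 and 12 genes lie above the line on the miR-7 deficient and wild type arrays labelled activated, against 3 and 5 on the miR-7 deficient and wild type naive arrays.

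The lymphocyte channel gene Kcnn4 was above background on the naive arrays alone. Its intensity was 360.5 on the miR-7 deficient array labelled activated, 611.2 on the wild type array labelled activated, 2929.2 on the miR-7 deficient naive array and 1557.1 on the wild type naive array. Both naive arrays were above their floor and both arrays labelled activated below theirs. It was at least 4.8-fold lower on the miR-7 deficient array labelled activated than on the miR-7 deficient naive array, a log2 difference of -2.26 against the floor. That became -0.96, inside 2-fold, with a floor at the 99th percentile. In wild type it was at least 2.15-fold lower (log2 -1.11), which became -0.94 after centring on the median of all genes and 0 with a floor at the 99th percentile. Between genotypes the naive arrays differed by 0.91 on the log2 scale, higher in miR-7 deficient but under 2-fold. Its second row had 286.5 and 348.3 on the miR-7 deficient and wild type arrays labelled activated, against 3467.4 and 2696.0 on the miR-7 deficient and wild type naive arrays. That row gave the same order of states, and a smaller naive genotype difference of 0.36. The part of the T cell markers, which were lower on the same arrays, in the Kcnn4 difference was not tested.

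Kcna3, which encodes Kv1.3, was not above the floor on any array. Its single row read 70.5, 164.6, 167.3 and 96.6 on the miR-7 deficient array labelled activated, the wild type array labelled activated, the miR-7 deficient naive array and the wild type naive array. These values lie in the range of the olfactory receptor rows, so its level could not be told from background on this row. Kcnk5, the 2-pore channel TASK-2 known from T cells, was not analysed here. Kcnab2, the Kv beta 2 subunit that binds Kv1 channels, had 1571.4 on the miR-7 deficient array labelled activated, 1169.5 on the wild type array labelled activated, 252.7 on the miR-7 deficient naive array and 425.8 on the wild type naive array. Both arrays labelled activated were above their floor and both naive arrays below. The bounds were 0.66 in miR-7 deficient and 0.25 in wild type (log2), short of 2-fold, and its other 2 rows were above no floor.

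**Figure D2:**
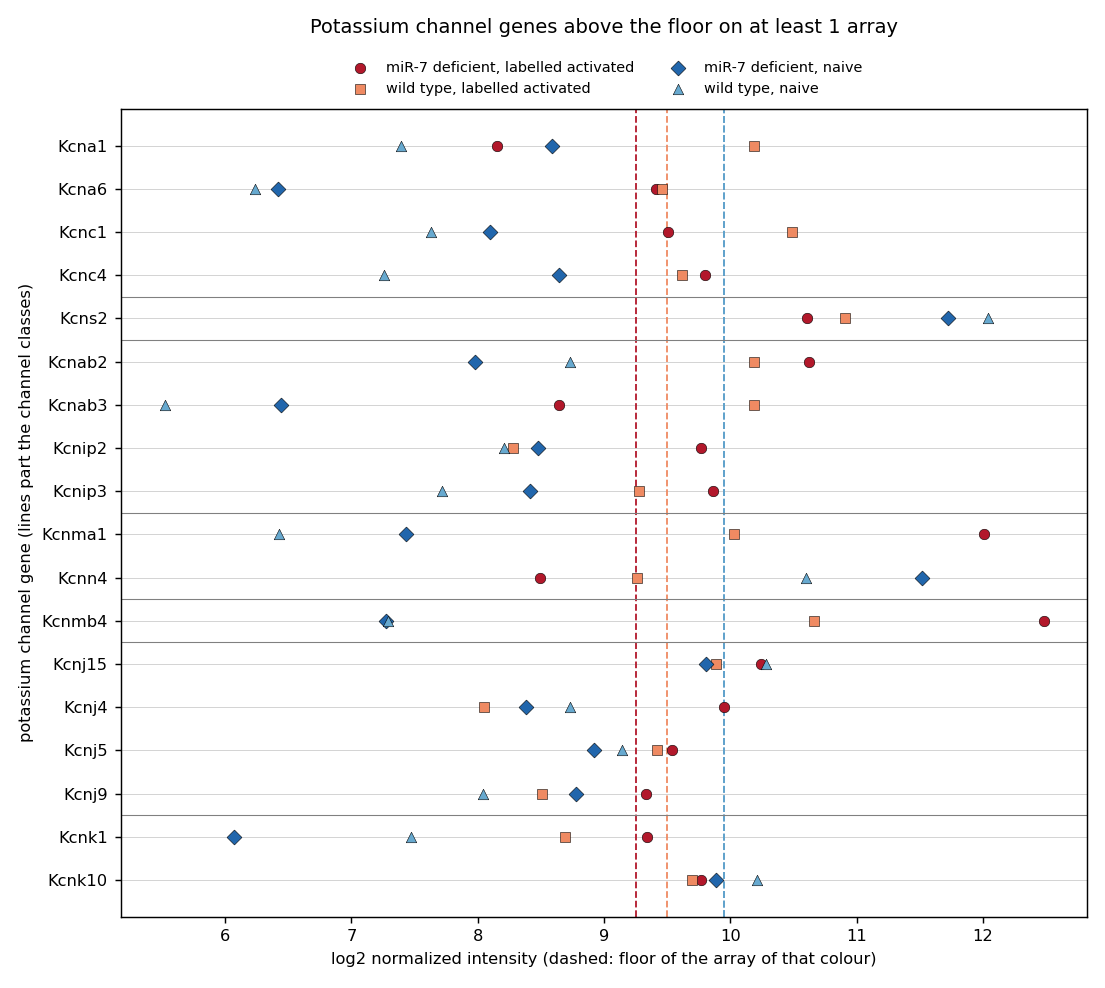
Log2 normalized intensity (x axis) of 18 potassium channel genes that exceeded the floor on 1 or more arrays, 1 line per gene and 1 marker per array, with dashed floors in the colour of the array; both naive floors lie at 9.95. Kcnn4, Kcns2 and Kcnk10 have both naive markers to the right of both others, whereas Kcnma1 and Kcnmb4 have them far to the left.

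Besides Kcnn4, a pair of genes of calcium-activated channels was apart between states. Kcnma1, the pore subunit of the BK channel opened by voltage and calcium, had 4127.2 on the miR-7 deficient array labelled activated, 1043.5 on the wild type array labelled activated, 172.4 on the miR-7 deficient naive array and 86.3 on the wild type naive array. Kcnmb4, the neuronal BK beta subunit that slows the gating of that pore, had 5727.1, 1620.0, 154.6 and 157.0 on the same arrays in that order. Both genes were above the floor on both arrays labelled activated and on neither naive array. Against the naive floor of the same genotype, Kcnma1 was at least 4.16-fold higher on the miR-7 deficient array labelled activated (log2 2.06). Kcnmb4 was at least 5.78-fold higher there (log2 2.53). With a floor at the 99th percentile these became 1.02 for Kcnma1 and 1.49 for Kcnmb4. With the 6 rows of Kcnma1 averaged its value was 0, because the averages lay below the floors of both arrays. In wild type the bounds were 0.08 for Kcnma1 and 0.72 for Kcnmb4, and did not reach 2-fold. As measured, with naive values below the floor, the wild type differences were 3.60 for Kcnma1 and 3.37 for Kcnmb4. In miR-7 deficient they were 4.58 and 5.21. Of the other 2 beta subunits, Kcnmb1 and Kcnmb2, and of the other pores of this class (Kcnn1, Kcnn2, Kcnn3, Kcnt1 and Kcnu1), none was above a floor.

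The same BK channel genes were the 2 that differed between genotypes on the arrays labelled activated, of 20 above a floor on at least 1 of those arrays. Among all genes above a floor there, 2.22% were higher and 2.37% lower in miR-7 deficient. Kcnma1 was 3.96-fold higher (log2 1.98) and Kcnmb4 3.54-fold higher (log2 1.82) on the miR-7 deficient array than on the wild type array, with both arrays above their floors. No potassium channel gene was 2-fold lower. Kcnma1 had 6 rows, and the other 5 were above no floor. Without a floor their differences were 1.53, 0.04, -0.92, 1.18 and 2.06, so 4 of 5 shared the sign of the kept row. With these rows averaged both arrays lay below their floors. The genotype difference was therefore also set to 0, and no size can be read from it. Kcnmb4 rests on 1 row. On the same arrays the neuron markers were not even: the excitatory neuron marker Slc17a7 had 15853.4 in miR-7 deficient against 902.5 in wild type, and the inhibitory neuron marker Gad2 had 643.0 in miR-7 deficient against 1980.8 in wild type. The part of this difference in that of the BK genes was not tested.

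**Figure D3:**
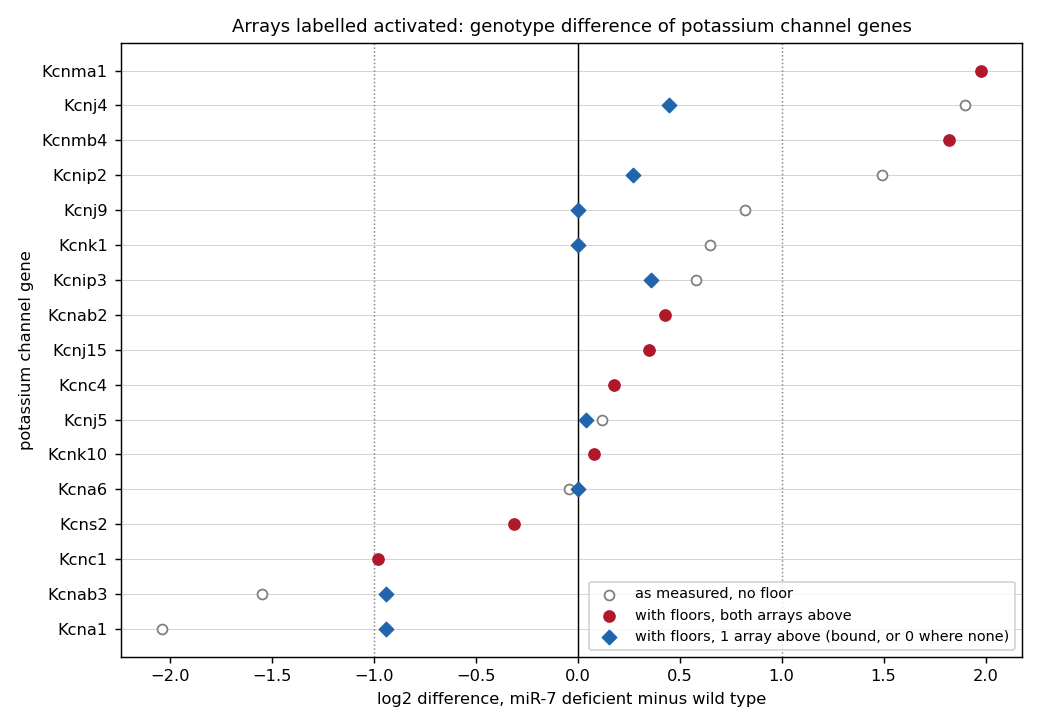
Log2 difference, miR-7 deficient minus wild type, on the arrays labelled activated for 17 potassium channel genes above a floor there (y axis); filled circles have both arrays above the floor, diamonds are bounds or 0 where no bound remains, open circles use no floor, and dotted lines mark 2-fold. Kcnma1 and Kcnmb4 are the 2 filled markers beyond 2-fold, and Kcnc1 at -0.98 lies just inside on the other side.

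Over all genes 70.1% were above no floor, the share to set beside the class counts here and below. Among the 21 voltage-gated pore genes, 7 were above a floor on at least 1 array. They included members of the Kv3 family, which repolarise fast-spiking neurons. Kcnc1 (Kv3.1) had 731.2 on the miR-7 deficient array labelled activated, 1441.2 on the wild type array labelled activated, 273.7 on the miR-7 deficient naive array and 198.1 on the wild type naive array. It was above the floor on the arrays labelled activated alone, and was lower in miR-7 deficient there, by a log2 difference of -0.98 that does not reach 2-fold. The second Kcnc1 row gave -1.24 without a floor, and averaging the rows of each gene made 1 member lower there by 2-fold. Kcnc4 (Kv3.4), with 891.3 and 788.8 on the miR-7 deficient and wild type arrays labelled activated, against 397.6 and 153.0 on the miR-7 deficient and wild type naive arrays, differed by 0.18 between genotypes on the arrays labelled activated.

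Kcna1, the axonal channel Kv1.1, was above the floor on the wild type array labelled activated alone. It had 284.4 on the miR-7 deficient array labelled activated, 1168.9 on the wild type array labelled activated, 386.3 on the miR-7 deficient naive array and 167.3 on the wild type naive array. It was at least 1.91-fold lower on the miR-7 deficient array labelled activated than on the wild type one. Kcnab3, a beta subunit of Kv1 channels, was likewise above the floor on the wild type array labelled activated alone, with 400.0, 1169.7, 86.8 and 45.8 on the same arrays in that order, and was at least 1.92-fold lower. Kcna6 (Kv1.6) had 681.8 and 702.7 on the miR-7 deficient and wild type arrays labelled activated, against 85.9 and 75.7 on the miR-7 deficient and wild type naive arrays. Only the first of these was above its floor.

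Kcns2 was above the floor on all 4 arrays and higher on the naive ones. It encodes a silent subunit that forms channels only together with other voltage-gated pores. It had 1559.0 on the miR-7 deficient array labelled activated, 1928.6 on the wild type array labelled activated, 3373.8 on the miR-7 deficient naive array and 4214.3 on the wild type naive array. The log2 difference, labelled activated minus naive, was -1.11 in miR-7 deficient and -1.13 in wild type. Centring on the median of all genes brought these to -0.98 and -0.96, inside 2-fold. Kcns2 has 1 row, and the other 7 silent subunit genes were above no floor.

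**Figure D4:**
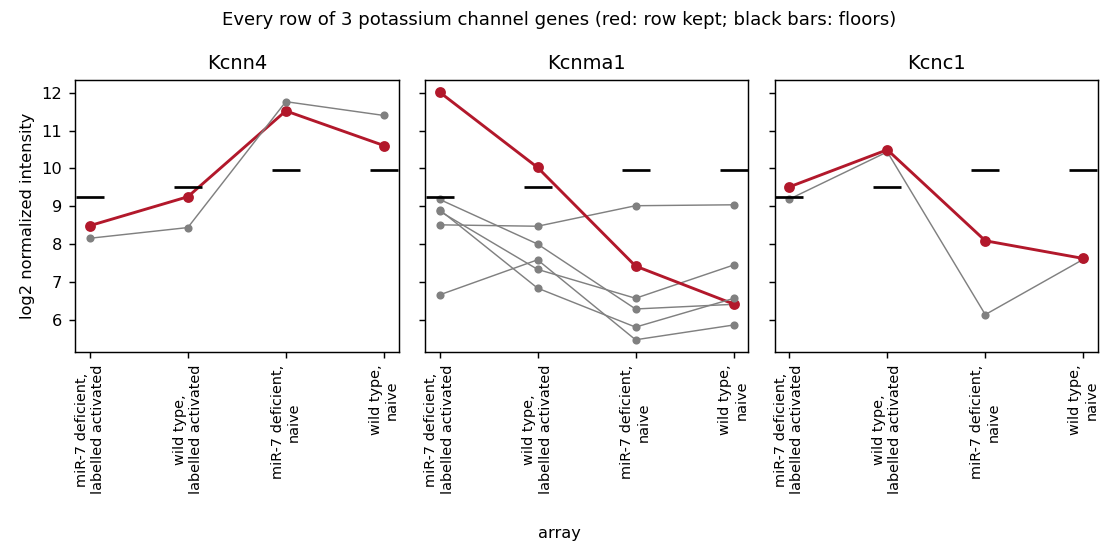
Log2 normalized intensity (y axis) of every row of Kcnn4, Kcnma1 and Kcnc1 on the 4 arrays (x axis), with the kept row in red, other rows in grey and the floors as black bars. The rows of Kcnn4 and of Kcnc1 share the order of states, whereas the kept Kcnma1 row is the 1 row of its gene above a floor.

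Of the 11 accessory genes of voltage-gated channels, 4 were above a floor, each on arrays labelled activated alone. Besides Kcnab2 and Kcnab3 these were the Kv channel interacting proteins Kcnip2 and Kcnip3, calcium sensors that bind Kv4 pores. Kcnip2 had 873.1 and 310.0 on the miR-7 deficient and wild type arrays labelled activated, against 355.9 and 296.7 on the miR-7 deficient and wild type naive arrays. Kcnip3 had 930.7 and 622.7 on the miR-7 deficient and wild type arrays labelled activated, against 341.3 and 210.5 on the naive ones. Both exceeded a floor only on the miR-7 deficient array labelled activated, where the bounds against wild type were 0.27 for Kcnip2 and 0.36 for Kcnip3. The measured Kv4 pores themselves, Kcnd2 and Kcnd3, were above no floor.

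Of the 12 inward rectifier genes 4 were above a floor. Kcnj4 (Kir2.3) had 989.0 on the miR-7 deficient array labelled activated, 265.5 on the wild type array labelled activated, 333.6 on the miR-7 deficient naive array and 423.9 on the wild type naive array. Its genotype difference on the arrays labelled activated was 1.90 as measured, but the wild type value lay below the floor and the bound was 0.45. Kcnj5 and Kcnj9, subunits of channels opened by G proteins, had 743.2 and 642.8 on the miR-7 deficient array labelled activated and were above the floor on that array alone. On the wild type array labelled activated they had 682.7 and 363.5. The Kcnj5 value of 682.7 lay below the floor of that array (723.1) but above that of the miR-7 deficient one (610.5). Without a floor Kcnj5 differed between these arrays by 0.12 on the log2 scale. Kcnj15 (Kir4.2) had 1211.3, 951.4, 895.3 and 1244.9 on the miR-7 deficient array labelled activated, the wild type array labelled activated, the miR-7 deficient naive array and the wild type naive array, with no difference of 2-fold.

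The 9 genes of 2-pore channels, which carry leak currents, had 2 above a floor. Kcnk10 (TREK-2) had 876.0 on the miR-7 deficient array labelled activated, 828.9 on the wild type array labelled activated, 951.5 on the miR-7 deficient naive array and 1180.6 on the wild type naive array, above all floors but that of the miR-7 deficient naive array. Kcnk1 (TWIK-1) had 647.9 and 412.3 on the miR-7 deficient and wild type arrays labelled activated, against 67 and 177.0 on the miR-7 deficient and wild type naive arrays. The first value was above its floor and the others below. The non-coding Kcnq1ot1 was above no floor.

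Counted over the family, the share of genes 2-fold apart with floors across states was near or below that of all genes. In miR-7 deficient it was 21.1%, beside 25.9% of all genes, and in wild type 23.1%, beside 23.3%. Between the arrays labelled activated it was 10.0% (2 of 20), beside 4.59%. In miR-7 deficient, labelled activated against naive, 2 of 19 were higher (Kcnma1 and Kcnmb4) and 2 lower (Kcnn4 and Kcns2), beside 11.1% higher and 14.8% lower among all genes above a floor. In wild type 0 of 13 were higher and 3 lower, among them Kcnn4 and Kcns2, beside 14.5% higher and 8.8% lower. Between the naive arrays 0 of 5 differed by 2-fold, beside 2.03% of all genes higher and 0.782% lower in miR-7 deficient. Of the values behind these counts 17 of 19 in miR-7 deficient and 9 of 13 in wild type were bounds, since 1 side lay below the floor. The share of higher among all genes apart was 42.8% in miR-7 deficient and 62.2% in wild type, and centring on the median moved it to 52.2% and 75.3%. Removal of an intensity trend gave 53.4% and 61.8%. Between the naive arrays that share was 72.2%, with 62.8% after centring and 35.2% after removal of the trend, where no potassium channel gene was apart.

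Without a floor the family leaned towards the arrays labelled activated. In miR-7 deficient 45 of 72 genes were higher on the array labelled activated and 27 lower, with a median log2 difference of 0.56, beside -0.13 over all genes. In wild type it was also 45 higher and 27 lower, with a median of 0.41, beside -0.17 over all genes. By 2-fold, 23 were higher and 8 lower in miR-7 deficient, beside 16.6% and 18.1% of all genes, and 22 were higher and 9 lower in wild type, beside 18.4% and 18.3%. These 2 comparisons share no array. By 2-fold in both of them, 16 genes were higher (22.2%, beside 10.6% of all genes) and 3 lower (4.17%, beside 6.57%), and 0 ran in opposite directions. Among the 16 were Kcna4, Kcna6, Kcnab2, Kcnab3, Kcnc1, Kcnc4, Kcnd2, Kcnip1, Kcnip3, Kcnj3, Kcnj14, Kcnk1, Kcnma1, Kcnmb4 and Kcnt1. The 3 were Kcnn4, Kcns2 and Kcnq1ot1. Most of these values lie below the floor, where an intensity may be background. Across the 72 genes the 2 differences correlated at r = 0.64, and across all genes at 0.68, values from arrays normalized together. The neuron and oligodendrocyte markers, whose sums are given above, were higher on the same arrays, and their part in this lean was not tested.

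The class medians of this lean did not keep the same order in the 2 genotypes. The voltage-gated accessory genes had a median difference without a floor of 1.45 in miR-7 deficient and 0.36 in wild type. The voltage-gated pores had 0.24 in miR-7 deficient and 0.77 in wild type. The inward rectifiers had 0.64 in miR-7 deficient and 0.10 in wild type. The calcium- or sodium-activated pores had 0.58 in miR-7 deficient and 0.43 in wild type, and the calcium-activated accessory genes 0.96 in miR-7 deficient and 0.09 in wild type. Silent subunits and 2-pore channels lay below 0, with -0.24 and -0.12 for silent subunits and -0.46 and -0.51 for 2-pore channels in miR-7 deficient and wild type. Between genotypes on the arrays labelled activated, 5 of 21 voltage-gated pores were higher in miR-7 deficient (median -0.48), against 7 of 11 accessory genes (median 0.43) and 9 of 12 inward rectifiers (median 0.32). Of the calcium- or sodium-activated pores 3 of 7 were higher (median -0.44), unlike Kcnma1, and of the calcium-activated accessory genes 3 of 3 (median 1.12). That median is the value of Kcnmb1, which like Kcnmb2 was above no floor. Over all genes 49.4% were higher in miR-7 deficient on the arrays labelled activated. By 2-fold without a floor, 9 of 72 genes were higher and 6 lower in miR-7 deficient on the arrays labelled activated, beside 6.72% and 6.22% of all genes. On the naive arrays 9 were higher and 7 lower in miR-7 deficient, beside 8.27% and 8.47%. Most values behind these class medians and counts lie below the floor, where an intensity may be background. With 1 array per group, none of these class differences has a test.

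Lists of other channels and partner proteins placed the family beside its partners. The share of all genes above no floor was 70.1%. Of 17 measured lymphocyte calcium and ion channels outside the family, 8 were above a floor on at least 1 array. Clic1, a chloride intracellular channel protein, was the 1 of them apart by 2-fold, with 431.1 and 663.9 on the miR-7 deficient and wild type arrays labelled activated, against 6064.0 and 3504.9 on the miR-7 deficient and wild type naive arrays. Like Kcnn4, it was above the floor on the naive arrays only. Stim1, the calcium sensor that opens Orai channels, had 1577.9 and 1719.0 on the miR-7 deficient and wild type arrays labelled activated, against 1601.4 and 1806.1 on the naive ones. Orai2 had 2305.9 and 1497.2 on the miR-7 deficient and wild type arrays labelled activated, against 2068.6 and 2836.6 on the naive ones. Of 12 measured neuronal partners, 5 and 4 exceeded the floor on the miR-7 deficient and wild type arrays labelled activated, against 0 on either naive array. Over all genes these shares were 25.6% and 22.2%, against 14.7% and 13.7% on the miR-7 deficient and wild type naive arrays. The partners above a floor were Dpp6, a Kv4 partner, Lgi1 and its receptor Adam22, and the axonal adhesion proteins Cntn2 and Cntnap1. Lgi1, which binds Kv1 complexes, had 2936.6 and 1597.7 on the miR-7 deficient and wild type arrays labelled activated, against 245.7 and 412.2 on the naive ones, and was 2-fold apart in miR-7 deficient (a bound of 1.57 on the log2 scale).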

How the data were processed

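RNA of 4 samples was hybridised to NimbleGen arrays with Cy3, 1 array per group. Per the submitters' processing notes, the authors used RMA (version not given). Each row's deposited intensity is linear, from 21.7 to 64873, although a file header calls it log2. The comparison tables that the authors deposited also give a fold change, a ratio of intensities, the larger over the smaller. Of the intensities in those 8 tables, 283288 of 283288 equal the value table (relative tolerance 1e-06), and 141644 of 141644 fold changes equal the ratio within 0.0001, so the value table alone was used and no fold change of the authors is quoted.

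Of 35411 rows 33663 name a gene, and 1748 without a name were left out. Symbols were updated by gene number from a RefSeq table (GRCm38.p6), which matched 31529 rows and all 72 potassium channel genes. No array coordinates are printed, since the sources used here give no build for the array. Intensities were taken to log2 and values below an array's floor were set to it. A difference with 1 side below the floor is a bound, set to 0 where no bound remains. A gene entered a comparison when 1 or both arrays exceeded the floor, and was called apart from a log2 difference of 1 upwards. No test was run, because each group has a single array, and the number of arrays limits the precision. Where several rows of a gene were above a floor, their differences had a pooled SD over all genes of 0.44 in the genotype comparison labelled activated, 0.40 in the naive one, and 0.80 and 0.86 across states in miR-7 deficient and wild type. Over the 3 potassium channel genes with such rows it was 1.31 and 1.07 across states, above the log2 limit of 1. This SD is no replicate error.

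Named are the genes that exceeded the floor on 1 or more arrays, the lymphocyte channels, list members above a floor and, chosen after their values were seen, genes counted without a floor. A few genes that this rule would name, and their places in figures with gene names, were left out of the report. The members, lists and classes were chosen with earlier results of these data known. Alternatives were centring, removal of an intensity trend (lowess fraction 0.3), no floor, floors at the 75th and 99th percentiles and the mean of all rows. The row with the highest mean on the linear scale was added after seeing the data. The counting was tested on simulated data, with changes placed only in genes well above the floor. That checks the counting itself and says little about bounds or values near the floor. The work used Python 3.11.15 with pandas 2.3.3 and numpy 2.4.6, statsmodels 0.14.6 for the trend, scipy 1.17.1, and matplotlib 3.10.9 for figures.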

Additional observations from a re-analysis of the deposited data

Results flagged for a closer look

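Kcna1 ran in opposite directions between genotypes in the 2 states when no floor was used: the log2 difference, miR-7 deficient minus wild type, was -2.04 on the arrays labelled activated and 1.21 on the naive arrays, so that they differed by -3.25. Both naive values, and the miR-7 deficient value labelled activated, lay below the floor. Kcnf1, a silent subunit gene, ran the other way, with 1.19 on the arrays labelled activated and -1.42 on the naive arrays, a difference of 2.61, and was below the floor on all 4 arrays. The difference was not tested in either case. Such opposite 2-fold differences were found for 2 of 72 potassium channel genes (2.78%), beside 1.22% of all genes.

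A row of Kcnip4, a Kv4 channel interacting protein, that was not used for the gene had an intensity of 722.3 on the miR-7 deficient array labelled activated, above the floor of 610.5, and 714.0 on the wild type array labelled activated, against 37.8 and 79.9 on the miR-7 deficient and wild type naive arrays. The row used for Kcnip4 was below the floor on all 4 arrays.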

How the results depend on the processing

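No difference behind the 9 calls of 2-fold with floors reversed under any alternative, but calls were lost: 5 of 9 stayed at 2-fold after centring, 6 with a floor at the 99th percentile, 6 with the mean of all rows and 8 with the intensity trend removed. All 9 stayed under the other 3 alternatives. The counts of genes 2-fold apart depended most on the floor. Without one, 9 genes were higher and 7 lower in miR-7 deficient between the naive arrays, and 9 higher and 6 lower between the arrays labelled activated. Labelled activated against naive, 23 were then higher and 8 lower in miR-7 deficient, and 22 higher and 9 lower in wild type. With a floor at the 75th percentile, 1 gene was lower between the naive arrays, 5 were higher and 3 lower between the arrays labelled activated, 12 higher and 5 lower in miR-7 deficient across states, and 10 higher and 5 lower in wild type. The genes above that floor numbered 42 and 34 on the miR-7 deficient and wild type arrays labelled activated, against 20 and 15 on the miR-7 deficient and wild type naive arrays. With a floor at the 99th percentile, 1 gene was lower across states in each genotype. Above that floor were 4 genes on each array labelled activated, 2 on the miR-7 deficient naive array and 1 on the wild type naive array. The mean of all rows gave 1 higher and 1 lower between the arrays labelled activated and 1 higher across states in miR-7 deficient. It left 9 and 6 genes exceeding the floor on the miR-7 deficient and wild type arrays labelled activated, against 2 on each naive array. Centring left 1 lower across states in miR-7 deficient and 0 in wild type, and removal of the intensity trend left 1 lower in miR-7 deficient. The cause was not tested, beyond the floor's own construction. The row choice on the linear scale, chosen after seeing the data, kept all 12 counts within 1.5 times and replaced the rows of Kcnn4 and Kcnip4. Centring, the trend and the absence of a floor give no count above a floor. No replicate could be left out with 1 array per group. No paired analysis was possible because each group has 1 array and the labels give no replicate numbers that pair samples across groups. Signal over background limits the 51 genes below all floors, including Kcna3.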
